A study of Mus musculus with 48 samples.

Results

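The transcriptional coactivator YAP and its relative TAZ switch on a recognizable set of genes in stretched or well-anchored cells, and 8 of these target genes were followed here: Ankrd1, Crim1, Lats2, Amotl1, Amotl2, Axl, Ajuba and Nuak2. They were chosen by name out of the 22180 genes that had a probe set mapped to a single symbol, and the matricellular targets of the CCN family were kept apart. Each of the 8 was read by 1 such probe set, so no choice between probe sets was needed. Mouse aorta lacking Eln (elastin), Efemp2 (fibulin-4, a matrix protein needed for elastic fibre assembly) or Lox (lysyl oxidase, the cross-linking enzyme of elastin and collagen) was set against the WT aorta of the same model. Ascending (AA) and descending (DA) aorta were sampled before birth at E17.5 and on the first postnatal day (P1). The 3 models, 2 genotypes, 2 locations and 2 stages made 24 groups of 2 arrays, each array holding RNA of 8 pooled aortas. Eln and Efemp2 mice were C57BL/6 and Lox mice B6 albino, KO and WT alike. The KO less WT difference at 1 location and 1 stage of a model is called a pair, of which there were 12.

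The Hippo pathway controls these genes. Its kinases, among them LATS1 and LATS2, phosphorylate YAP and TAZ and keep them out of the nucleus, whereas stretch, a stiff matrix and actin tension favour their nuclear form. In the nucleus they bind DNA through the TEAD factors. Several targets feed back on the pathway: LATS2, the angiomotins AMOTL1 and AMOTL2 and the kinase NUAK2 act on YAP or on its upstream kinases, and the LIM protein AJUBA binds and inhibits LATS. ANKRD1, an ankyrin repeat protein of muscle sarcomeres and nuclei, CRIM1, a transmembrane protein that binds bone morphogenetic proteins, and AXL, a receptor tyrosine kinase, are widely used as readouts. In vascular smooth muscle the pathway is known for its part in the response to wall stress.

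Promoters of the genes were searched for the TEAD letters GGAATG because TEAD factors are the usual route from YAP to these genes. RefSeq windows on GRCm38.p6, running from 250 bases before to 50 after the start of a gene, were available for 7 of the 8, all but Nuak2. GGAATG, on either strand, stood in the windows of 6 of these 7 genes, against 16.6% of 27025 genes (14.7% of 32851 windows of 300 bases). Amotl1 had no match in its window, and of the 2 Lats2 windows only the first had one. The matches are shown 5′ to 3′ on the strand that reads GGAATG, with that motif in capitals and 10 bases on either side.
Ankrd1, chr19:36120039-36120064: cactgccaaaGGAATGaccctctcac
Ankrd1, chr19:36119952-36119977: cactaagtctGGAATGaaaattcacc
Crim1, chr17:78200159-78200184: ggcgggggggGGAATGaggtaggatg
Lats2, chr14:57746104-57746129: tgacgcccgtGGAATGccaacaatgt
Amotl2, chr9:102717729-102717754: tgctatgccaGGAATGtgagagtttc
Axl, chr7:25788951-25788976: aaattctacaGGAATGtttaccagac
Ajuba, chr14:54577832-54577857: ggggcactgtGGAATGtatccatcaa
Ajuba, chr14:54577810-54577835: gtttacagttGGAATGcgcggagggg

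Ankrd1 and Ajuba each held a pair of matches, at 210 and 123 bases before the start of Ankrd1 and at 186 and 164 bases before that of Ajuba. The matches of Amotl2 and Ajuba lay on the strand opposite to the gene, and those of Ankrd1, Crim1, Lats2 and Axl on the strand of the gene. The whole upstream stretch is shown for Ankrd1 (chr19:36119845-36120094, minus strand), the gene with the largest differences, with both matches in capitals.
Ankrd1 upstream: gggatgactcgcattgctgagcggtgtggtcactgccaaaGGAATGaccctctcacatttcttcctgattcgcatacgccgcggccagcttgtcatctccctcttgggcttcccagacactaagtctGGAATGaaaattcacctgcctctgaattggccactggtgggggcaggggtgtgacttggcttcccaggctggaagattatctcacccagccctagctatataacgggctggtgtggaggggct
TGANTCA, the letters bound by AP-1, a frequent partner of TEAD, stood in 0 of the 7 (8.97% of all genes, 7.81% of all windows). The CArG box, bound by serum response factor in muscle genes, also stood in 0 of the 7 (1.81% of all genes, 1.63% of all windows). Among other genes examined below, GGAATG was found in 10 of 20 Hippo pathway genes with a window, in 1 of 9 further YAP targets and in 3 of 11 focal adhesion genes. These matches describe letters in a window and say nothing of binding in the aorta.

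**Figure D1:**
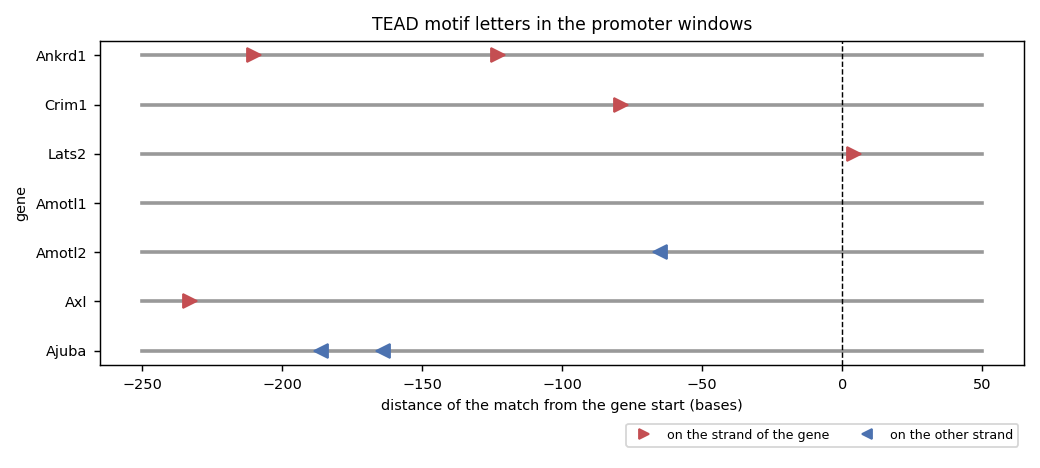
Position of GGAATG in the RefSeq promoter windows of 7 genes. The horizontal axis is the distance of the match from the start of the gene in bases (dashed line: start), grey bars are the windows, and arrowheads mark matches on the strand of the gene or on the other strand. Amotl1 is the only gene of the 7 without a match, and Ankrd1 and Ajuba have 2 each.

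Several facts of the whole series bear on the values below. Array medians ran from 3.71 to 5.35 (log2) and differed between sets of arrays. KO less WT differences were therefore taken only within a pair, and DA less AA in WT only within a model and stage. Elastin message read 4.46 to 5.44 where Eln was deleted and 10.43 to 11.90 in WT, and Lox message read 7.10 to 8.59 where Lox was deleted and 9.56 to 11.45 in WT. Efemp2 was not among the tested genes, so that deletion was not checked. Among the P1 arrays of Eln and Efemp2, 4 WT arrays stood apart because their unnamed probe sets were bright. They were both arrays of the Eln WT descending aorta and, from the Efemp2 WT, the second replicate of either location. The median signal of 1394 olfactory and vomeronasal receptor genes, taken as the array background, was lower in KO than in WT in 11 of 12 pairs, by 0.17 on average and by 0.63 in Eln DA P1. Smooth muscle markers had summed signals of 12.07 to 13.98 in WT and 12.38 to 14.07 in KO. The labels name pooled aortas but do not say whether the 2 pools of a group came from separate litters, so p-values measure the spread between these pools only.

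Ankrd1, Crim1 and Lats2 rose in the mean of the 12 pairs. Ankrd1 was higher by 0.86 ± 0.18 (SE, 24 KO and 24 WT arrays), which is 1.81-fold, Crim1 by 0.34 ± 0.07 (1.27-fold) and Lats2 by 0.34 ± 0.07 (1.26-fold). Limma with Benjamini-Hochberg adjustment over 15337 tested genes gave adjusted p = 0.00175, 0.0018 and 0.00111. Amotl1, Amotl2, Axl and Ajuba, at 0.02, 0.07, 0.14 and 0.17, did not pass. Nuak2 lay below the level filter, at group means of 3.07 to 4.77 against the 4.94 required, and was not tested. Thus 3 of the 7 tested genes rose and none fell, where 6.25% of all tested genes rose and 3.91% fell. The median difference of the 7 was 0.17, beside 0.00 over all tested genes, and each of the 7 lay above that overall median. Because bulk tissue was measured, more RNA per cell cannot be told apart from more cells of a type that expresses the gene. None of the 3 calls held once array background entered the fit as a covariate: Ankrd1 differed by 0.73 (adjusted p = 0.0971), Crim1 by 0.19 (adjusted p = 0.289) and Lats2 by 0.27 (adjusted p = 0.1). Without the 4 arrays of high background all 3 still passed, at 0.94, 0.28 and 0.22, and Axl passed as well, at 0.19, without replicate 2 of Efemp2 WT AA E17.5 (adjusted p = 0.0294).

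**Figure D2:**
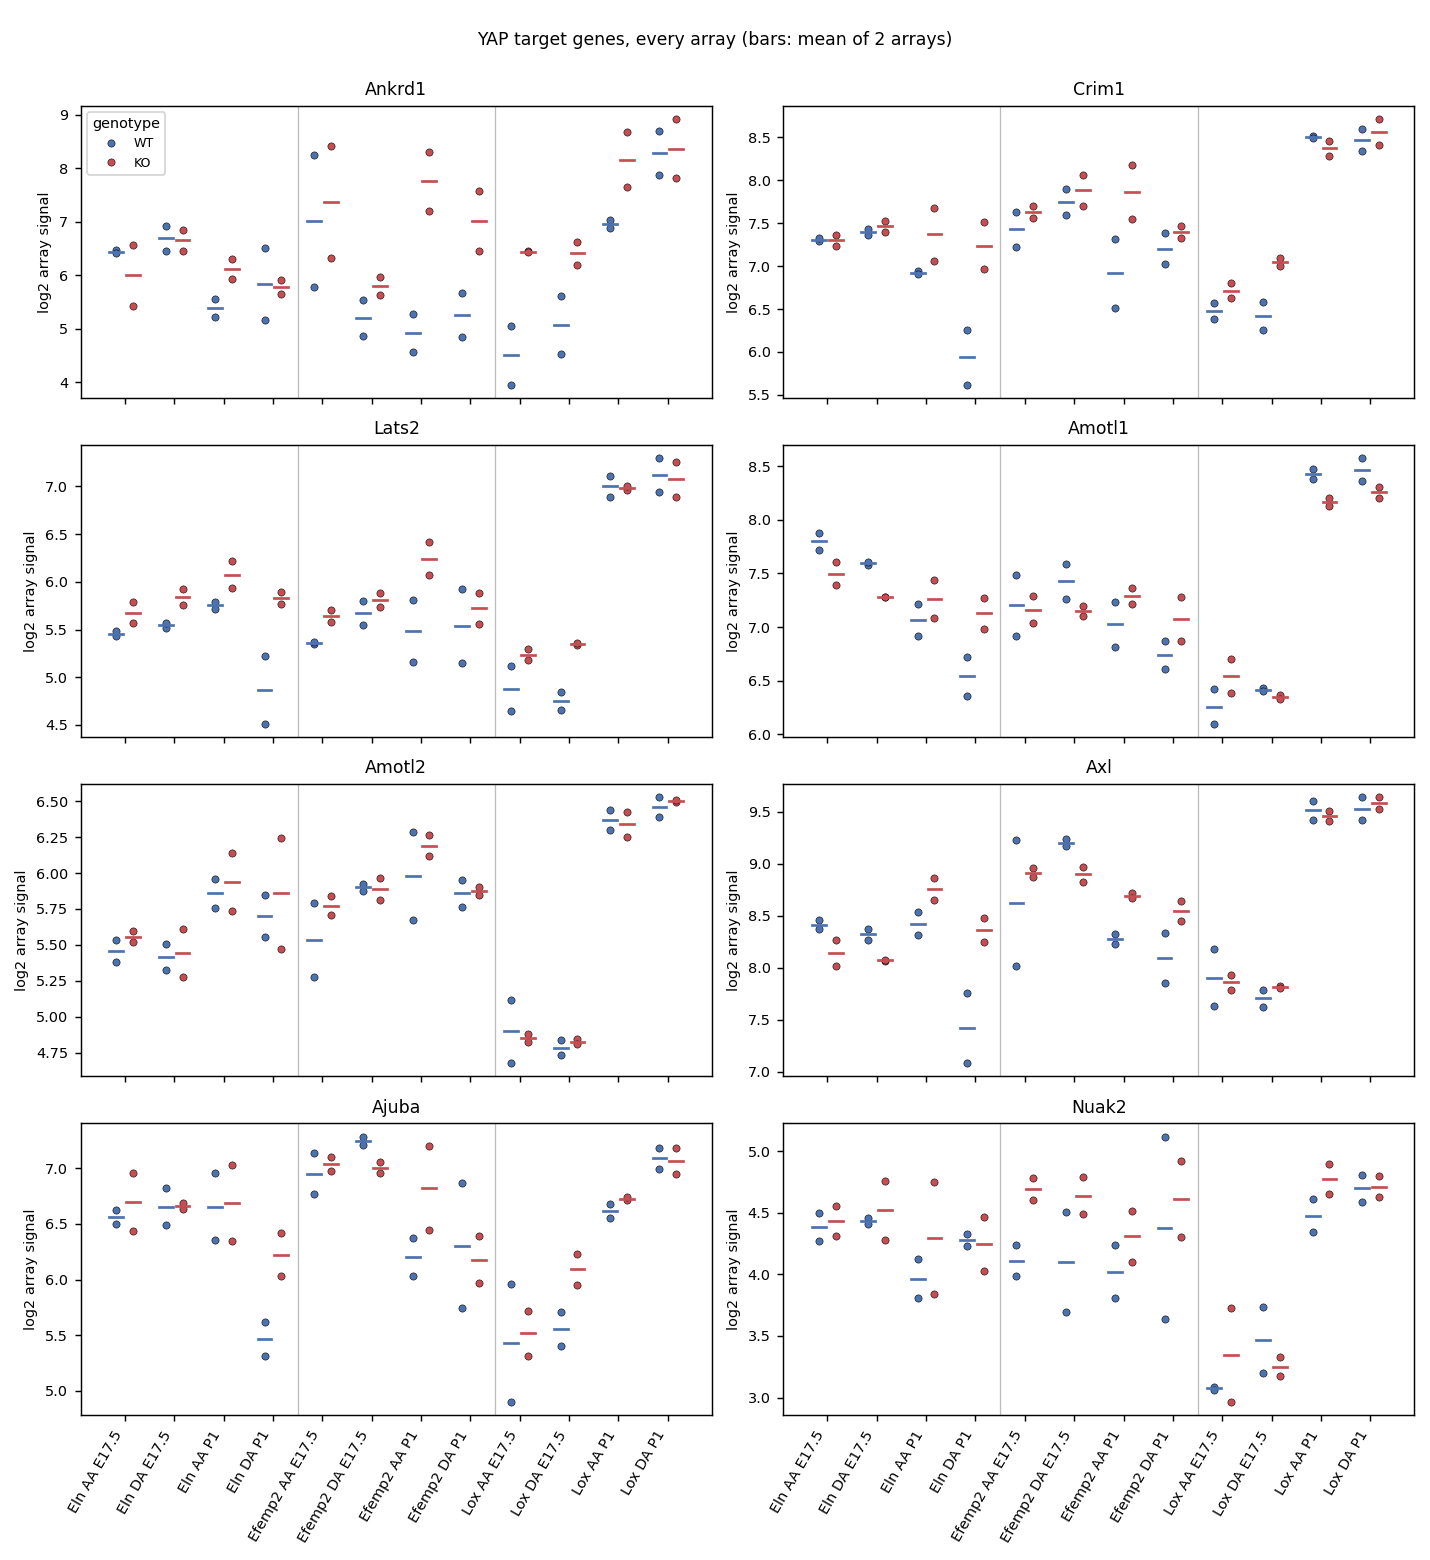
Signal of the 8 genes on every array. The vertical axes are log2 array signals, each on its own range, the horizontal axis lists the 12 model, location and stage combinations, points are arrays (blue WT, red KO) and bars are means of 2 arrays. Lats2 KO points lie above both WT points in 8 of 12 pairs and Ankrd1 KO points in 7, whereas Amotl2 has no such pair.

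The number of pairs in which both KO arrays lay above both WT arrays differed between the genes. It was 8 of 12 for Lats2 and 7 of 12 for Ankrd1, and 1.83% and 3.14% of all tested genes separated in at least 8 and at least 7 pairs. Crim1 and Axl separated this way in 5 pairs each (at least 5 pairs in 11.2% of genes), Ajuba in 4 (at least 4 in 22.4%), Nuak2 in 2, Amotl1 in 1 and Amotl2 in 0. Both KO arrays lay below both WT arrays in 6 pairs for Amotl1, 3 for Axl, 1 each for Crim1 and Ajuba and 0 for the others. Over all tested genes and pairs, 20.3% of combinations had both KO arrays above and 22.6% had both below. At P1 the KO arrays lay above in 19 of 48 gene and pair combinations of the 8 genes (39.6%) and below in 3 (6.25%), while all tested genes gave 21.7% and 26.3%. Of the 19, Eln DA P1, Efemp2 AA P1 and Efemp2 DA P1, which hold WT arrays of high background, gave 5, 5 and 2. There 38.7%, 27.6% and 26.4% of all tested genes had both KO arrays above. Eln AA P1, Lox AA P1 and Lox DA P1 gave 4, 3 and 0, beside 21.4%, 8.33% and 7.6% of all tested genes. At E17.5 the counts were 13 above (27.1%) and 8 below (16.7%), beside 18.8% and 18.9% of all tested genes.

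**Figure D3:**
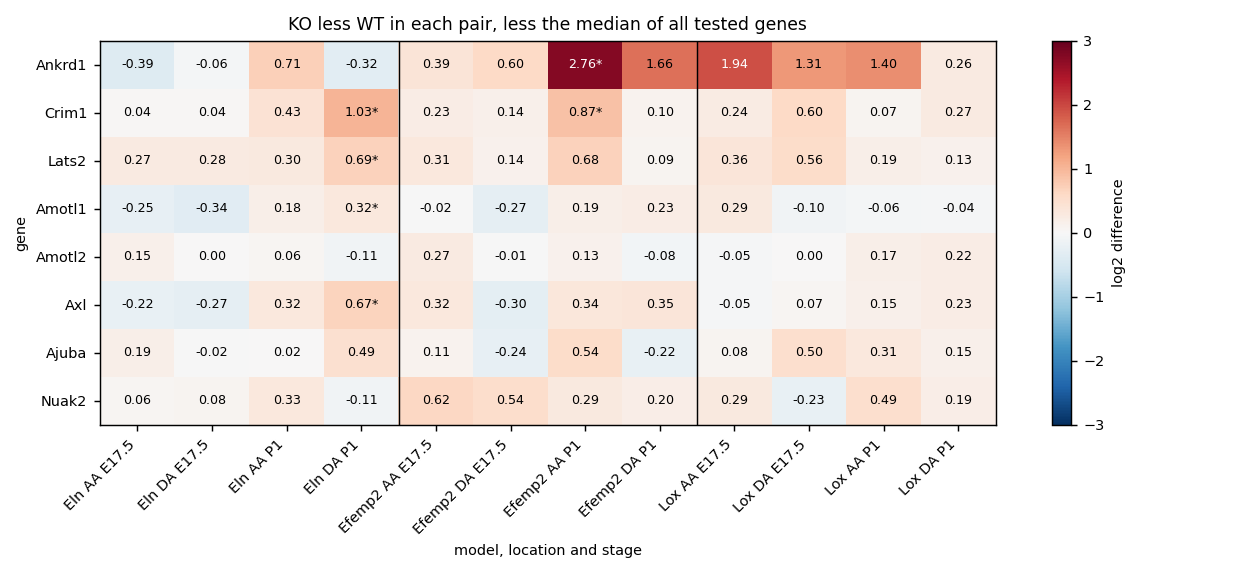
KO less WT differences (log2) of the 8 genes in each of the 12 pairs, after subtraction of the median difference of all tested genes in that pair. Colour gives the size and sign of the difference and asterisks mark adjusted p under 0.05 for the difference before subtraction. The largest values belong to Ankrd1 in the Efemp2 and Lox models, and the 6 asterisks lie in Eln DA P1 and Efemp2 AA P1.

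Ankrd1 had the widest range of the 8. In Efemp2 AA P1 the KO arrays read 7.20 and 8.31 and the WT arrays 4.57 and 5.28, a difference of 2.83 ± 0.63 (7.13-fold, limma adjusted p = 0.0098). Of all tested genes 3.03% rose in the pair. The call was lost without WT replicate 1 (2.48, adjusted p = 0.0625) or KO replicate 2 (2.28, adjusted p = 0.172), and with the arrays of the model alone (adjusted p = 0.126). In Efemp2 DA P1 the KO arrays were at 6.45 and 7.58 and the WT arrays at 5.67 and 4.85. The groups were apart in both locations at P1. Over both locations at P1 the rise in Efemp2 KO was 2.30 ± 0.45 (4.91-fold, adjusted p = 0.0017), and over all 4 Efemp2 pairs it was 1.39 ± 0.32 (2.62-fold, adjusted p = 0.00746). The P1 call held in each of the alternative settings, whereas that over 4 pairs was lost with the background covariate (1.25, adjusted p = 0.0631) and with the arrays of the model alone (adjusted p = 0.104). At E17.5 the Efemp2 AA arrays overlapped widely, at 8.25 and 5.78 in WT and 6.32 and 8.42 in KO. In Efemp2 DA E17.5 they read 5.54 and 4.87 in WT and 5.97 and 5.64 in KO.

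Lox KO arrays showed higher Ankrd1 at E17.5. In AA they read 6.45 and 6.43 against 3.95 and 5.05 in WT, and in DA 6.20 and 6.62 against 5.60 and 4.53. In Lox AA P1 the KO arrays read 7.65 and 8.67 and the WT arrays 6.88 and 7.04, a difference of 1.20, or 1.40 less the median of all genes, while in Lox DA P1 they overlapped at 8.92 and 7.82 in KO and 7.87 and 8.70 in WT. The KO groups were apart from WT in 3 of the 4 Lox pairs. The mean over the 4 pairs was 1.14 ± 0.32 with a 95% interval of 0.50 to 1.79 and did not pass (limma adjusted p = 0.0574). It did pass when only the 16 arrays of Lox mice were fitted (adjusted p = 0.0135), and also without the 4 arrays of high background of the other models (adjusted p = 0.0402).

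In the Eln model Ankrd1 differed by 0.05 ± 0.32 (95% interval -0.60 to 0.69, limma adjusted p = 0.965). KO arrays lay above WT only in AA P1, at 5.94 and 6.30 against 5.56 and 5.22. In DA P1 they read 5.91 and 5.65 against 5.17 and 6.50, at E17.5 in AA 6.56 and 5.43 against 6.47 and 6.41, and in DA 6.85 and 6.45 against 6.92 and 6.46. The Ankrd1 difference was larger in Efemp2 KO than in Eln KO by 1.34 ± 0.45 and larger in Lox KO than in Eln KO by 1.09 ± 0.45 (1.24 less the shift of all genes), of which neither passed over all genes (limma adjusted p = 0.25 and 0.285).

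Ankrd1 is also abundant in heart muscle, and heart muscle markers gave signal in these samples. By group, 8 to 14 of the 14 markers listed had means at or above the level filter. The tissue source of that signal was not tested. The residual SD of Ankrd1 between arrays of a group was 0.71, above that of 99.1% of tested genes, whose median was 0.26. The summed signal of 14 heart muscle markers ran from 10.24 to 13.20 (log2) in WT arrays and from 10.28 to 13.54 in KO arrays, and arrays with more of it tended to read more Ankrd1. Since array medians differed between sets, that relation over all arrays is a description only. Within the groups of Efemp2 AA E17.5, the WT array with Ankrd1 at 8.25 had a heart sum of 12.54 and its replicate at 5.78 had 11.72, while the KO array at 8.42 had 13.54 and its replicate at 6.32 had 11.75. Over the 12 pairs the median difference of the 14 markers was -0.02, and Myh7, the slow heart myosin, was the single one to pass (-0.41, limma adjusted p = 0.0457).

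The heart sum moved with Ankrd1 in some pairs and not in others. In Efemp2 AA P1 it differed by 0.15 beside 2.83 for Ankrd1, in Lox AA P1 by -0.08 beside 1.20, and in Efemp2 DA E17.5 by -0.51 beside 0.60. In Efemp2 DA P1 it differed by 1.29 beside 1.76, and in Lox AA E17.5 by 0.96 beside 1.94. Tnnt2 (cardiac troponin T) and Myl7 (atrial myosin light chain) rose in Efemp2 P1 at adjusted p under 0.05, where 7.07% of all genes rose. They were the only markers of the 14 to rise by that threshold. By sign alone, 11 of the 14 were higher in KO in Efemp2 DA P1 and 6 in Efemp2 AA P1. With the heart sum as a covariate, chosen after seeing the data, Ankrd1 rose by 0.78 ± 0.12 over the 12 pairs (adjusted p = 2.77e-05). The covariate took the Efemp2 mean to 0.94 ± 0.21 (adjusted p = 0.00898), the Efemp2 P1 mean to 1.40 ± 0.32 (adjusted p = 0.0103) and the Lox mean to 0.93 ± 0.21 (adjusted p = 0.0123). The Eln mean became 0.48 ± 0.21 (adjusted p = 0.236).

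**Figure D4:**
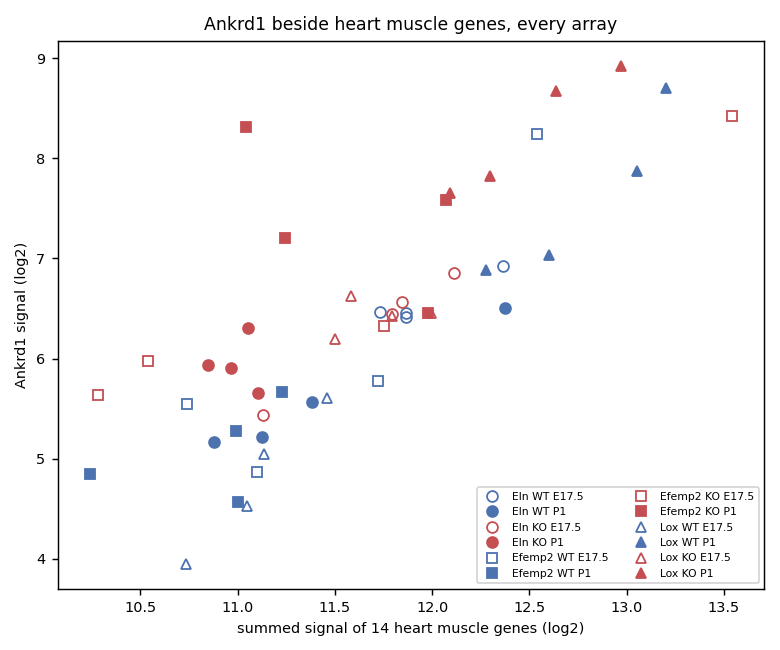
Ankrd1 signal against the summed signal of 14 heart muscle genes on each of the 48 arrays, both log2. Shapes give the model, colour the genotype (blue WT, red KO) and filling the stage (open E17.5, filled P1). Array medians differ between models and stages. Within Efemp2 AA P1 the KO arrays, at 7.20 and 8.31, lie above the WT arrays, at 4.57 and 5.28, at heart sums of 10.99 to 11.25 in all 4.

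Crim1 rose most in Eln DA P1. The WT arrays there read 5.62 and 6.26 and the KO arrays 6.96 and 7.51, a difference of 1.30 ± 0.25 (2.46-fold, limma adjusted p = 0.00064) that was 1.03 after subtraction of the median of all genes. Of all tested genes 19.8% rose in that pair, where both WT arrays had high background. In Eln AA P1 the KO arrays read 7.06 and 7.67 and the WT arrays 6.94 and 6.91, again without overlap. At E17.5 the Eln arrays coincided, at 7.24 and 7.36 in KO AA against 7.29 and 7.33 in WT and at 7.40 and 7.53 in KO DA against 7.36 and 7.43 in WT. The mean over both P1 pairs was 0.87 ± 0.18 (adjusted p = 0.0019), or 0.75 less the median of all genes. With the background covariate it was 0.49 (adjusted p = 0.375) and the DA P1 difference 0.73 (adjusted p = 0.346), so neither call held. Without the 4 arrays of high background only AA P1 is left of the P1 pairs, at 0.45 (adjusted p = 0.291).

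In Efemp2 AA P1 Crim1 read 7.55 and 8.18 in KO and 6.52 and 7.32 in WT, a rise of 0.95 ± 0.25 (limma adjusted p = 0.0322), a call lost without WT replicate 1 (0.55, adjusted p = 0.271) or KO replicate 2 (0.64, adjusted p = 0.362). It was lost too with cyclic loess (0.65, adjusted p = 0.154), the background covariate (0.77, adjusted p = 0.0911) or the arrays of the model alone (adjusted p = 0.197). In the DA at the same stage it read 7.47 and 7.33 in KO against 7.38 and 7.03. The KO and WT arrays overlapped in the DA and were apart in the AA. Over the 4 Efemp2 pairs the difference was 0.37 ± 0.13 (adjusted p = 0.103), and over both P1 pairs 0.57 ± 0.18 (adjusted p = 0.0424). The P1 call was lost when WT AA replicate 1, WT DA replicate 2, KO AA replicate 2 or either KO DA array was left out, with adjusted p of 0.0717 to 0.222. It was also lost in 6 other settings, with the lowest value under cyclic loess (0.29, adjusted p = 0.382). In Lox KO, Crim1 was higher at E17.5, at 6.63 and 6.80 against 6.38 and 6.58 in AA and at 7.01 and 7.10 against 6.58 and 6.25 in DA. In Lox AA P1 it was lower in KO, at 8.29 and 8.46 against 8.51 and 8.49, which was 0.07 above the median of all genes in that pair. The Lox mean was 0.21 ± 0.13 (adjusted p = 0.457).

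Axl differed in direction between the stages of the Eln model. At E17.5 both KO arrays lay below both WT arrays, at 8.02 and 8.27 against 8.46 and 8.37 in AA and at 8.07 and 8.07 against 8.26 and 8.38 in DA. At P1 both lay above, at 8.86 and 8.65 against 8.54 and 8.32 in AA and at 8.48 and 8.24 against 7.08 and 7.76 in DA. The P1 rise was 0.64 ± 0.18 (1.55-fold, limma adjusted p = 0.0173), or 0.51 less the median of all genes. In Eln DA P1 alone it was 0.94 ± 0.25 (adjusted p = 0.0068), or 0.67 less the median, and the E17.5 difference of -0.26 ± 0.18 did not pass. The P1 effect exceeded the E17.5 effect by 0.90 ± 0.25, or 0.76 less the shift of all genes, which had the lowest adjusted p of any such difference among the 7 genes but did not pass (0.0737). Without the 4 arrays of high background DA P1 has no WT left, and the AA P1 difference that remains was 0.33 (adjusted p = 0.487). With the background covariate the P1 difference was 0.43 (adjusted p = 0.491) and that of DA P1 0.62 (adjusted p = 0.455), and with cyclic loess they were 0.35 (adjusted p = 0.284) and 0.42 (adjusted p = 0.318). The P1 call was also lost without WT AA replicate 2, WT DA replicate 1 or KO AA replicate 1 (adjusted p of 0.0538 to 0.132), and the DA call without WT DA replicate 1 (0.60, adjusted p = 0.15).

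The Efemp2 KO aorta had a like order of Axl values. At P1 KO arrays were above WT, at 8.72 and 8.67 against 8.22 and 8.33 in AA and at 8.64 and 8.45 against 8.33 and 7.86 in DA. In DA E17.5 they were below, at 8.83 and 8.97 against 9.24 and 9.17. In AA E17.5 the WT arrays lay on either side of the KO arrays, at 8.02 and 9.23 around 8.96 and 8.88. The P1 mean of 0.43 ± 0.18 did not pass (limma adjusted p = 0.122). In Lox KO the differences lay between -0.05 and 0.10, and between -0.05 and 0.23 less the median of all genes. Axl is expressed by many cell types, macrophages included. The macrophage markers had a median difference of 0.63 in Efemp2 KO, where 6 of 10 rose (3.14% of all genes), and of -0.01 in Eln KO. Their summed signal ran from 8.61 to 11.96 in WT and from 9.08 to 12.14 in KO. It differed by -0.90 in Eln AA P1 beside 0.33 for Axl, and by 0.51 in Eln DA P1 beside 0.94. In Efemp2 it differed by 0.83 beside 0.42 in AA P1 and by 0.53 beside 0.45 in DA P1. Across the Lox pairs it was higher in KO by 0.11 to 0.55, beside Axl differences of -0.05 to 0.10. The part of macrophages in the Axl values was not tested.

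Lats2, the feedback kinase, was the member whose KO arrays were most often above WT, in all 4 Eln pairs among others. In the Eln model the KO arrays read 5.57 and 5.79 against 5.43 and 5.48 in AA E17.5, and 5.93 and 5.76 against 5.51 and 5.57 in DA E17.5. At P1 they read 5.93 and 6.21 against 5.79 and 5.72 in AA and 5.76 and 5.89 against 5.22 and 4.51 in DA. None of these 4 pairs overlapped. The mean was 0.45 ± 0.12 (1.37-fold, limma adjusted p = 0.0281), and the DA P1 pair reached 0.96 ± 0.24 (adjusted p = 0.0045), or 0.69 less the median of all genes. Without replicate 2 of the WT the pair gave 0.60 (adjusted p = 0.111), with the background covariate 0.69 (adjusted p = 0.38) and with cyclic loess 0.62 (adjusted p = 0.0586). Crim1 had a similar Eln mean, 0.45 ± 0.13 (adjusted p = 0.0419), so 2 of the 7 genes rose in Eln KO, where 2.74% of all tested genes rose. Without the 4 arrays of high background DA P1, the pair with the largest difference, has no WT left, and over the 3 other Eln pairs Lats2 differed by 0.28 (adjusted p = 0.256) and Crim1 by 0.17 (adjusted p = 0.753). Either or both calls of the 4-pair mean were also lost when any 1 of 14 of the 16 Eln arrays was left out, all but replicate 1 of KO AA P1 and of KO DA P1, at differences of 0.36 to 0.54 for Lats2 (highest adjusted p = 0.0888) and 0.37 to 0.53 for Crim1 (0.151).

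In Efemp2 KO, Lats2 separated from WT in AA at both stages, at 5.58 and 5.70 against 5.34 and 5.37 at E17.5 and at 6.07 and 6.42 against 5.81 and 5.16 at P1. In DA the arrays overlapped, at 5.88 and 5.73 against 5.80 and 5.54 at E17.5 and at 5.56 and 5.89 against 5.92 and 5.15 at P1. Its Efemp2 mean was 0.34 ± 0.12 (limma adjusted p = 0.113). In Lox KO it separated at E17.5, at 5.18 and 5.29 against 4.64 and 5.11 in AA and 5.34 and 5.36 against 4.66 and 4.84 in DA. At P1 it did not separate, with KO arrays at 6.96 and 7.01 against 6.89 and 7.11 in AA and at 7.26 and 6.89 against 7.30 and 6.94 in DA. The Lox mean was 0.22 ± 0.12 (adjusted p = 0.385).

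The angiomotins are scaffold proteins that bind YAP and help to activate LATS. Amotl1 passed in 1 pair, Eln DA P1, where it read 7.27 and 6.98 in KO and 6.36 and 6.72 in WT (0.59 ± 0.20, limma adjusted p = 0.0353, or 0.32 less the median of all genes). The call was lost without replicate 1 of WT (0.40, adjusted p = 0.258) or of KO (0.44, adjusted p = 0.188). It was also lost with cyclic loess (0.05, adjusted p = 0.913), the background covariate (0.30, adjusted p = 0.703) and the arrays of the model alone (adjusted p = 0.0623). At E17.5 it was lower in Eln KO in both locations, at 7.60 and 7.40 against 7.88 and 7.72 in AA and at 7.28 and 7.28 against 7.58 and 7.60 in DA. That E17.5 difference was -0.31 ± 0.14 and did not pass (unadjusted p = 0.0422, adjusted p = 1). KO arrays were also below WT in Efemp2 DA E17.5, Lox DA E17.5 and both Lox P1 pairs. After subtraction of the median of all genes the differences in both Lox P1 pairs were -0.06 and -0.04. Over the 12 pairs Amotl1 differed by 0.02 with a 95% interval of -0.10 to 0.14.

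Amotl2 had overlapping KO and WT arrays in each of the 12 pairs. Its mean difference was 0.07 ± 0.06 with a 95% interval of -0.06 to 0.20 (limma adjusted p = 0.558). The model means were 0.09 in Eln, 0.11 in Efemp2 and 0.00 in Lox KO.

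Ajuba lay above WT without overlap in Eln DA P1, at 6.03 and 6.42 against 5.31 and 5.62, in Efemp2 AA P1, at 7.20 and 6.44 against 6.37 and 6.04, and in Lox DA E17.5, at 6.23 and 5.95 against 5.40 and 5.71. It also did so in Lox AA P1, by a small margin, at 6.71 and 6.74 against 6.67 and 6.55. It lay below in Efemp2 DA E17.5, at 7.05 and 6.95 against 7.28 and 7.21. None of these pairs passed the test, and the mean of 0.17 ± 0.09 did not either (limma adjusted p = 0.276).

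Nuak2, a stress kinase of the AMPK family, gave the lowest signals, and its values come from a fit of all 22180 genes without the level filter. It was higher in KO in 10 of 12 pairs (at least 10 in 5.34% of tested genes), and its arrays overlapped in 10. The Nuak2 mean over the 12 pairs was 0.20 ± 0.10 (limma adjusted p = 0.208). The Efemp2 mean was 0.41 ± 0.17 (adjusted p = 0.233), with KO arrays at 4.60 and 4.78 against 3.98 and 4.23 in AA E17.5. Those arrays were apart, whereas in DA P1 the WT arrays, at 5.12 and 3.63, lay on either side of the KO arrays at 4.92 and 4.30. Over the Eln and Lox pairs it differed by 0.11 and 0.09 (0.19 less the median of all genes in Lox), and neither passed.

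With the stages taken apart, each call was made at P1. In Eln P1, 3 of the 7 genes rose (Crim1, Lats2 and Axl), where 8.75% of all tested genes rose. The Lats2 call, 0.64 ± 0.17 (limma adjusted p = 0.013) or 0.51 less the median of all genes, was lost with the background covariate (0.46, adjusted p = 0.424) and cyclic loess (0.47, adjusted p = 0.0562). Within AA P1, the one P1 pair left without the 4 arrays of high background, Lats2 differed by 0.32 (adjusted p = 0.382). It was also lost without WT DA replicate 2 (0.46, adjusted p = 0.076) or KO AA replicate 2 (0.57, adjusted p = 0.0808). In Efemp2 P1, 2 rose (Ankrd1 and Crim1), against 7.07%. In Lox P1, limma called 0 of the 7, with 0 at an unadjusted p under 0.05, and 3.79% of all genes passed in either direction. At E17.5 it called 0 of the 7 in each model, where 0.228% (Eln), 0.782% (Efemp2) and 0.124% (Lox) of all genes passed in either direction. At an unadjusted p under 0.05 there were 1 of 7 in Eln (Amotl1, lower), 0 in Efemp2 and 3 in Lox E17.5 (Ankrd1, Crim1 and Lats2, all higher). Over the 4 pairs of a model, 1 of 7 rose in Efemp2 KO (3.14% of all genes) and 0 passed by limma in Lox KO (1.56% of all genes in either direction), where Ankrd1 was the single gene of the 7 under 0.05 unadjusted. In single pairs the 6 calls were 4 in Eln DA P1 and 2 in Efemp2 AA P1, all rises, where 19.8% and 3.03% of all genes rose. Both WT arrays of Eln DA P1 and 1 of Efemp2 AA P1 had high background. In the other Eln pairs limma called 0 of the 7, with 0 under 0.05 unadjusted, where 0.124% (AA E17.5), 0.0456% (DA E17.5) and 1.81% (AA P1) of all genes passed. In the other Efemp2 pairs it called 0, with 1 under 0.05 unadjusted (Ankrd1 in DA P1), where 0.613% (AA E17.5), 0.0391% (DA E17.5) and 1.55% (DA P1) passed. In the Lox pairs it called 0, with 4 under 0.05 unadjusted, all at E17.5 (Ankrd1 in AA, and Ankrd1, Crim1 and Lats2 in DA), where 0.0261% (AA E17.5), 0.013% (DA E17.5), 0.606% (AA P1) and 0.261% (DA P1) passed. The shares of all genes given here are at adjusted p under 0.05, and shares under 0.05 unadjusted were not taken.

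These differences between models, stages and locations were tested themselves, and limma called none for the 7 genes. Among 21 tests between models 2 were under 0.05 unadjusted, both for Ankrd1, and the lowest adjusted p was 0.25. At adjusted p under 0.05, 0.554% of all genes differed between Efemp2 and Eln, 0.509% between Lox and Eln and 0.0261% between Lox and Efemp2. Among 28 tests between stages 8 were under 0.05 unadjusted. At adjusted p under 0.05, 0.567% (Eln), 1.33% (Efemp2), 0.0978% (Lox) and 0.665% (all models) of all genes differed. These thresholds are unlike, and the share of all genes under 0.05 unadjusted was not taken. Among 28 tests between locations 0 were under 0.05 unadjusted. At adjusted p under 0.05, 5.24% (Eln), 0% (Efemp2), 0% (Lox) and 0.215% (all models) of all genes differed. In Eln KO the P1 effect exceeded that at E17.5 by 0.84 ± 0.25 for Crim1 (adjusted p = 0.0993) and by 0.70 ± 0.20 for Amotl1 (adjusted p = 0.093). In Efemp2 KO it did so by 1.82 ± 0.63 for Ankrd1 (adjusted p = 0.136) and by 0.46 ± 0.20 for Amotl1 (adjusted p = 0.251). Over all models it did so by 0.44 ± 0.14 for Axl (adjusted p = 0.144) and by 0.27 ± 0.12 for Amotl1 (adjusted p = 0.272). In Lox KO the order was the other way for Lats2, at -0.51 ± 0.24 (adjusted p = 0.41). Without 1 of 3 arrays some of these passed (Eln WT DA P1 replicate 2, or either Efemp2 WT AA E17.5 array), giving up to 3 calls. The Eln and Lox values become 0.70, 0.56 and -0.30 once the shift of all genes is subtracted, and those of Efemp2 become 1.71 and 0.35. The stage difference of Axl in Eln KO, given above, completes the 8. In the fit without the level filter Nuak2 passed in none of these differences (lowest adjusted p = 0.715). In WT arrays 0 of the 7 differed between DA and AA by limma (0 under 0.05 unadjusted), where 8.59% of all tested genes did, and the 7 differences lay between -0.15 and 0.18.

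Upstream of these targets, Wwtr1, which encodes TAZ, rose by 0.25 ± 0.06 over the 12 pairs (limma adjusted p = 0.00323, higher in 11 of 12), whereas Yap1 differed by -0.01 ± 0.06 (adjusted p = 0.955). Of the DNA-binding partners, Tead1 rose by 0.26 ± 0.06 (adjusted p = 0.00381, 11 of 12). Of all tested genes 2.23% were higher in at least 11 of 12 pairs. Tead2, Tead3 and Tead4, at -0.14, 0.15 and 0.13, did not pass. Wwtr1 rose in Eln KO (0.35 ± 0.10), and Tead1 in Eln (0.38 ± 0.11) and Efemp2 KO (0.38 ± 0.11). In Lox KO Wwtr1 was at 0.15 and Tead1 at 0.03, and neither passed. Of 25 Hippo pathway genes listed, 23 were tested and Stk3 and Taok1 had no probe set of their own. Over the 12 pairs 3 rose (Wwtr1, Tead1 and Wwc2, an upstream scaffold, at 0.27) and 1 fell (Fat4, an atypical cadherin, at -0.23), with a median of 0.01, beside 6.25% of all genes that rose and 3.91% that fell. These calls, and those of the further YAP targets, CCN genes, focal adhesion genes and markers below, were not examined with the background covariate. Over all genes that covariate took the 1558 calls of the 12 pairs to 642.

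**Figure D5:**
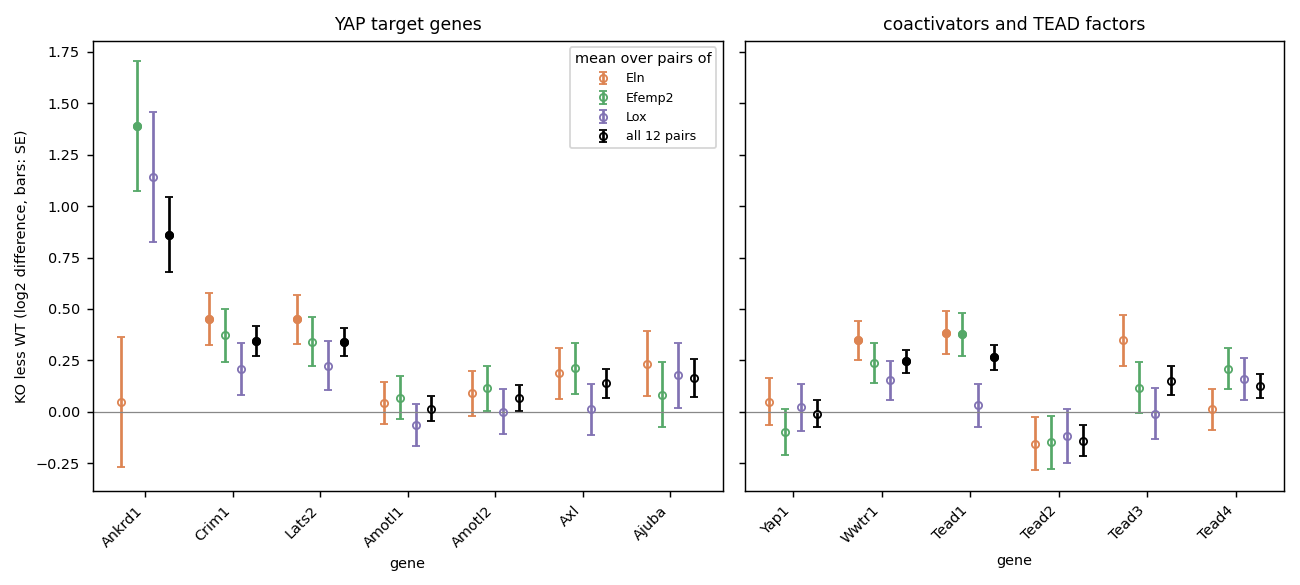
Mean KO less WT difference (log2) of the 7 tested targets and of the coactivators and TEAD factors in each model and over all 12 pairs. Points are means, bars are ± 1 SE, and filled points have adjusted p under 0.05. Ankrd1 is near 0 in Eln KO and above 1 in Efemp2 and Lox KO, and Wwtr1 and Tead1 are filled over the 12 pairs while Yap1 is near 0.

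Further genes known as YAP targets moved in both directions. Of 14 listed, 13 were tested (Gadd45a had no probe set of its own), 5 rose and 1 fell over the 12 pairs (6.25% and 3.91% of all genes), with a median of 0.04. Igfbp3, a carrier of insulin-like growth factors, went up by 0.64 ± 0.07 and Fjx1, a Golgi kinase related to planar polarity, by 0.56 ± 0.07. F3, the tissue factor of coagulation, rose by 0.42 ± 0.08 and Tgfb2 by 0.26 ± 0.07. Ccdc80, a matrix protein, fell by 0.23 (SE 0.06). In Eln KO 2 of the 13 rose (2.74% of all genes), with Fjx1 at 1.01 ± 0.12. In Efemp2 KO 3 rose (3.14%), with Igfbp3 at 0.96 ± 0.13. In Lox KO none passed, where 1.56% of all genes did in either direction. Their Lox median was -0.04, beside -0.09 over all tested genes. The CCN genes kept apart from the 8, Ccn1 and Ccn2, were higher in 12 of 12 pairs, by 0.93 ± 0.14 and 1.03 ± 0.08. Of all tested genes 0.711% were higher in 12 of 12.

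Focal adhesion genes, whose proteins couple integrins to actin, were listed too. Of 14, 12 were tested and 7 rose over the 12 pairs, where 6.25% of all genes rose, with a median of 0.21. Among them were Bcar1 (0.43 ± 0.08), Actn1 (0.41 ± 0.06), Vcl (0.30 ± 0.08) and the stretch-sensitive channel gene Trpv4 (0.29 ± 0.07). In Eln P1 10 of the 12 rose (8.75% of all genes rose) and in Efemp2 P1 4 (7.07%), while in Lox P1 their median was -0.03, or 0.16 less the median of all genes, and none passed. The Eln P1 comparison holds 2 of the arrays of high background, and its calls in either direction over all genes went from 1669 to 125 with the background covariate. Of the smooth muscle markers 4 of 8 rose over the 12 pairs (Myh11, Tagln, Cnn1 and Smtn). By contrast 5 of 10 endothelial markers, 5 of 7 fibroblast markers and 6 of 7 brown fat markers fell. Flt1 and Pi16 rose against their lists. Of all tested genes 6.25% rose and 3.91% fell. The summed macrophage signal was lower in KO in Eln AA at either stage (-0.18 and -0.90). It was higher in the other pairs, by 0.11 (Lox AA P1) to 1.33 (Efemp2 AA E17.5). The part of these cell types in the differences of the 8 genes was not tested.

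The genes whose 12 pair differences ran most like those of each member, by Pearson's r after subtraction of the median of all genes, differed between the members. They are descriptions over 12 points, 4 from each model, that include Eln DA P1, with its high WT background. The genes outside the set were picked from the tested genes for their highest r in these same data. Ankrd1 ran with Cox10 (0.88) and Prrx1 (0.87), Crim1 with Capns1 (0.96) and Fam102b (0.93), and Lats2 with Chst11 (0.91) and Qsox1 (0.90). Amotl1 ran with Tns2 (0.93) and Srcap (0.92), Amotl2 with Tex13b (0.89) and Krt6a (0.88), Axl with Fbln2 (0.93) and Ddr2 (0.93), and Ajuba with Rab29 (0.91) and Vmac (0.90). Within the set, Crim1 and Lats2 were the most alike at r = 0.90, and 0.85 without Eln DA P1. Lats2 and Ajuba were at 0.82, Amotl1 and Axl at 0.79, and Ankrd1 lay between -0.06 and 0.45 with each of the other tested members.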

How the data were processed

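The deposited log2 signals came from RMA, run by the authors in Expression Console of Affymetrix, per the submitters' processing notes; versions, array name and genome build are not given in the sources used here. RNA of 8 pooled aortas was amplified for each array, per the labels. Of 41345 probe sets, 23521 had a single symbol, and the one of highest mean stood for each of 22180 genes. A gene was tested when a group mean reached 4.94, the median of these probe sets, which kept 15337 genes. Limma 3.58.1 in R 4.3.3 fitted 24 group means to 48 arrays (24 residual degrees of freedom, eBayes), with Benjamini-Hochberg adjustment per contrast and a threshold of 0.05; it was tested on simulated data. Where all tested genes shifted by over 0.1, main values less that median are also given, and the p belongs to the value before subtraction. Each comparison covers the 8 genes by name or count; of each list, up to 4 genes with the largest passing differences are named (Ccdc80 after its value was seen). The genes and lists were chosen with earlier results of these data known. Alternatives are given at the end; the heart covariate was added after the data were seen. Promoters came from RefSeq, GRCm38.p6.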

Additional observations from a re-analysis of the deposited data

How the results depend on the processing

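Of the 7 tested genes, the 3 that rose over the 12 pairs became 0 once array background was a covariate and stayed at 3 in the other 8 settings (3 to 4 when leaving out 1 array). The 2 calls in Eln KO became 1 with no filter, cyclic loess, the replicate block (KO with WT of the same number) or the random replicate block (AA with DA), and 0 with the background covariate, without the 4 arrays of high background or with only the arrays of the model (0 to 2 leaving out 1 array, changed by 14 of 16 arrays, all but replicate 1 of KO AA P1 and of KO DA P1). The 1 call in Efemp2 KO became 0 with the background covariate or the model's arrays alone and 2 without the 4 arrays (1 to 2 leaving out 1, with 2 without WT AA E17.5 replicate 2, either WT AA P1 array, WT DA P1 replicate 1 or KO AA P1 replicate 1). The 0 in Lox KO became 1 with the heart covariate, without the 4 arrays or with the model's arrays alone (0 to 1, with 1 without WT AA E17.5 replicate 2 or KO DA P1 replicate 2). In Eln P1, 3 became 1 with cyclic loess and 0 with the background covariate or without the 4 arrays (2 to 3). In Efemp2 P1, 2 became 1 with no filter, cyclic loess, the random replicate block, either covariate or the model's arrays alone (1 to 4). In Lox E17.5, 0 became 1 with the model's arrays alone. The 6 calls in single pairs became 2 with cyclic loess, 1 with the background covariate, 2 without the 4 arrays, where Eln DA P1 has no value, and 3 with the model's arrays alone (4 to 8). Stage differences stayed at 0 but for leaving out 1 array (0 to 3 in each model, 0 to 1 over the models), and differences between models or locations stayed at 0 under each alternative run. No direction of a called value reversed. The cause of these changes was not tested. A fit of the model's arrays alone cannot give contrasts across models. Whether replicate numbers pair the arrays cannot be told from 2 arrays a group. Deviations of same-numbered KO and WT arrays correlated at a median of 0.05 (-0.23 to 0.20). Those of AA and DA arrays did so at -0.03 (-0.25 to 0.36), with a consensus correlation of 0.09 for the random block. With the fixed block, calls moved in the Eln mean. Over all genes, the 1558 calls of the 12 pairs became 642 with the background covariate. Only 2 arrays a group limit the precision.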
